A study of Homo sapiens with 12 samples.

Results

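The genes described here are 10 secreted factors that act on blood vessels: the VEGF family ligands *VEGFA*, *VEGFB*, *VEGFC* and *PGF*, the angiopoietins *ANGPT1* and *ANGPT2*, the angiopoietin-like *ANGPTL4*, and the vasoactive peptides apelin (*APLN*), adrenomedullin (*ADM*) and endothelin-1 (*EDN1*). They were taken by symbol from the 43236 genes of each count file, and all 10 of the 10 were found and passed the filter on low counts, as did 15979 genes in all. The cells are HOS-MNNG (MNNG/HOS), a chemically transformed line derived from the human osteosarcoma line HOS, so every group stems from the same line. The 4 groups of 3 libraries are cells in DMSO, the vehicle, for 6 h, NXP800 at 300 nM for 6 h, DMSO for 24 h, and NXP800 at 300 nM for 24 h. NXP800 is a small molecule developed against the HSF1 pathway that the study examines as an activator of the eIF2α kinase GCN2. The 10 genes were chosen by symbol with the fold changes of NXP800 against DMSO at 6 h and 24 h in view, so they count as selected on those values, and these comparisons are given for them as values and counts, with no test.

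VEGF ligands are secreted dimers that signal through receptor tyrosine kinases on endothelial cells: VEGF-A mainly through VEGFR2 (*KDR*), VEGF-B and placental growth factor through VEGFR1 (*FLT1*), and VEGF-C through VEGFR3 (*FLT4*) on lymphatic vessels. Angiopoietin-1 activates the endothelial receptor TIE2 (*TEK*) and steadies vessels, while angiopoietin-2 acts largely as its context-dependent antagonist. Apelin, adrenomedullin and endothelin-1 bind G protein-coupled receptors, and tumour cells can release all of these factors toward the vessels around them. *VEGFA* is a classical target of hypoxia-inducible factors (HIF) and also responds to stresses other than lack of oxygen.

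Counts on genes were between 30810614 and 31947656 per library. Read pairs that hit no gene made up 6.66 to 8.14% of the 6 h libraries and 2.73 to 3.67% of the 24 h libraries, so each NXP800 group was set against the DMSO libraries of its own time. The labels do not say whether replicates were separate cultures, and p-values then measure only the spread between these libraries. Of 6 markers of osteosarcoma and mesenchymal cells, *VIM*, *COL1A1*, *SPARC* and *RUNX2* passed the filter and summed to 3800 to 6770 CPM. This sum, mostly *VIM*, was lower in NXP800 than in DMSO of the same time. *RUNX2* was instead higher in NXP800, with a mean of 37.2 against 22.7 CPM at 6 h and 35.2 against 27.4 CPM at 24 h. Its groups did not overlap. *COL1A2* had at most 12 counts and *ALPL* at most 7 in any library. Of 9 endothelial markers 5 passed and summed to 7.32 to 13.1 CPM, most of it *ESAM* (151 to 328 counts), whereas *TEK*, *CDH5* and *EMCN* had at most 4, 7 and 1 counts. Of 5 pericyte markers 4 passed, and their sum was higher in NXP800 (72.4 to 83.9 CPM at 6 h and 68.9 to 103 CPM at 24 h) than in DMSO (48 to 52.6 and 39 to 44.8 CPM). Most of this sum was *CSPG4*, and *RGS5* was also higher in NXP800. *NOTCH3* and *KCNJ8* were lower in NXP800 at 6 h. *NOTCH3* had 93, 85 and 76 counts in DMSO and 43, 46 and 38 in NXP800. *KCNJ8* had 17, 15 and 24 counts in DMSO and 2, 3 and 4 in NXP800. At 24 h the groups of both genes overlapped. *ABCC9* was at 0 in every library. Of 5 leukocyte markers only *CD68* passed, and the sum was 61.2 to 76.7 CPM in DMSO and 61.1 to 72.9 CPM in NXP800 at 6 h, and 67.2 to 91.4 and 120 to 154 CPM at 24 h. The part of these markers in the results was not tested. In bulk RNA, fewer cells that express a gene and less RNA per cell cannot be told apart.

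NXP800 changed the VEGF family in opposite directions. *VEGFA* RNA was 6.34-fold higher at 6 h and 5.79-fold higher at 24 h. *PGF* RNA was 4.18-fold lower and 5.37-fold lower. *VEGFB* was lower at both times, and *VEGFC* was higher at 6 h while its groups overlapped at 24 h. Levels below are CPM (counts scaled to a common library size, with the TMM correction for library composition), and fold changes come from edgeR's fit over all genes.

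*VEGFA* (GRCh38.p14, chromosome 6, 43770211 to 43786487) had 69.9, 69.0 and 76.2 CPM in the DMSO libraries of 6 h (replicates 1, 2 and 3) and 467, 452 and 445 CPM in the NXP800 libraries. At 24 h it had 86.3, 63.5 and 60.6 CPM in DMSO and 393, 496 and 329 CPM in NXP800. Every NXP800 library lay far above every DMSO library, and the lowest NXP800 value was 329 CPM against a highest DMSO value of 86.3 CPM. The log2 fold change was 2.66 at 6 h (standard error 0.14) and 2.53 at 24 h (standard error 0.14), and 79 and 133 of the 15979 genes rose more. The NXP800 libraries of 24 h spread more widely (406 ± 84.5 CPM) than those of 6 h (455 ± 11.3 CPM, SD, n = 3 each). An antisense gene covers 1.3% of the *VEGFA* exon length.

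*PGF* lies on chromosome 14 from 74941830 to 74955764 and encodes placental growth factor, a ligand of VEGFR1 and neuropilin-1. It had 276, 258 and 264 counts in DMSO and 62, 50 and 82 counts in NXP800 at 6 h. Its 24 h counts were 417, 595 and 467 counts in DMSO and 99, 101 and 90 counts in NXP800. The groups did not overlap at either time. The log2 fold change was -2.06 (standard error 0.17) at 6 h and -2.42 (standard error 0.16) at 24 h. *VEGFB*, on chromosome 11 from 64234584 to 64239264, encodes a VEGFR1 ligand known from heart muscle and fat metabolism. Its counts were 400, 491 and 518 in DMSO and 248, 312 and 334 in NXP800 at 6 h, and 497, 476 and 561 in DMSO and 321, 362 and 475 in NXP800 at 24 h. Its groups did not overlap, but the highest NXP800 count of 24 h (475) came within 1 count of the lowest DMSO count (476). The log2 fold changes were -0.68 (standard error 0.14) and -0.48 (standard error 0.14).

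*VEGFC*, on chromosome 4 from 176683538 to 176792922, encodes the main lymphangiogenic ligand of the family. It had 20.2, 19.3 and 18.8 CPM in DMSO and 32.2, 30.5 and 30.3 CPM in NXP800 at 6 h, a log2 fold change of 0.67 (standard error 0.092). At 24 h it had 11.7, 14.6 and 15.6 CPM in DMSO and 13.2, 14.2 and 13.1 CPM in NXP800. All NXP800 libraries of 6 h were above DMSO, whereas the 24 h groups overlapped, and the fitted value was -0.048 in log2 units (95% interval -0.25 to 0.16) whose sign changed with library-size scaling. The difference between both responses (24 h less 6 h) was -0.72 on the log2 scale (95% interval -1.01 to -0.44).

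**Figure D1:**
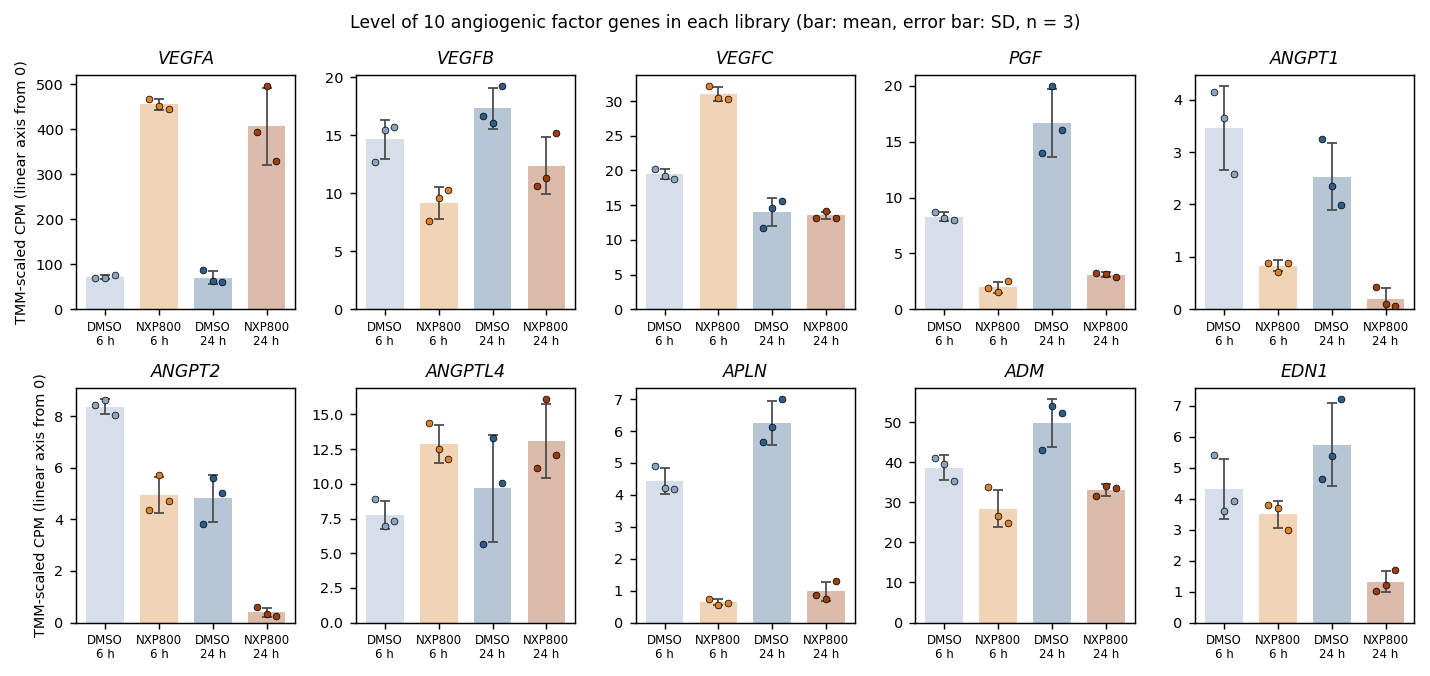
TMM-scaled CPM (linear axis from 0, scaled separately in each panel) of the 10 genes in DMSO and NXP800 libraries of 6 h and 24 h; points are libraries, bars the mean and error bars the SD (n = 3). *VEGFA* is between 329 and 496 CPM in all 6 NXP800 libraries against 60.6 to 86.3 CPM in DMSO, while *PGF*, *APLN* and *ANGPT1* are lower in all NXP800 libraries than in DMSO of the same time.

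The make-up of the VEGF ligand RNA shifted accordingly. To compare genes, CPM were divided by the length of the representative (MANE Select) transcript in kilobases. Of the summed CPM per kb of the 4 ligands, *VEGFA* made up 48.0 ± 1.29% in DMSO and 86.3 ± 0.573% in NXP800 at 6 h, and 43.3 ± 7.27% and 88.2 ± 2.75% at 24 h (SD, n = 3 each). *PGF* went from 11.6 ± 0.844% to 0.782 ± 0.204% at 6 h and from 21.4 ± 4.30% to 1.43 ± 0.197% at 24 h. The shares of *VEGFB* and *VEGFC* were also smaller in every NXP800 library, although *VEGFC* RNA itself was higher at 6 h. Among all 10 genes, *ADM* had the highest level in DMSO at 6 h (25.9 ± 2.07 CPM per kb), followed by *VEGFA* (19.9 ± 1.08) and *VEGFC* (8.60 ± 0.312), whose range overlapped that of *VEGFB* (8.11 ± 0.942). *PGF* (4.77 ± 0.224) and *ANGPTL4* (4.14 ± 0.557) overlapped with each other, and *EDN1* (2.12 ± 0.478), *ANGPT2* (1.59 ± 0.0565), *APLN* (1.38 ± 0.126) and *ANGPT1* (0.819 ± 0.190) followed without overlap. In NXP800 *VEGFA* stood first, at 126 ± 3.14 CPM per kb at 6 h and 112 ± 23.4 at 24 h, above *ADM* at 19.1 ± 3.14 and 22.1 ± 0.950.

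**Figure D2:**
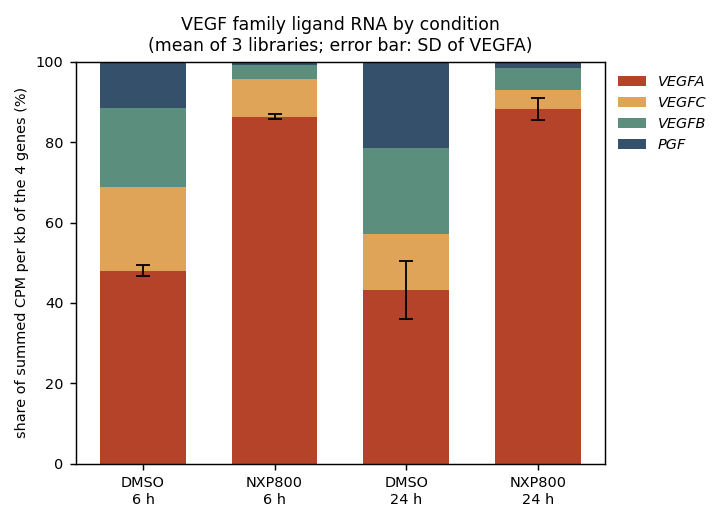
Share of each VEGF family ligand in the summed CPM per kb of the 4 genes (stacked bars, mean of 3 libraries, percent), by treatment and time, with the SD of the *VEGFA* share as error bar. *VEGFA* takes 43.3 to 48.0% in DMSO and 86.3 to 88.2% in NXP800, and *PGF* shrinks to 0.782 and 1.43%.

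Both angiopoietins were lower after NXP800, with larger fitted falls at 24 h. *ANGPT1*, on chromosome 8 from 107249482 to 107497918, had 131, 116 and 85 counts in DMSO and 29, 23 and 29 counts in NXP800 at 6 h. The 24 h libraries had 97, 70 and 58 counts in DMSO and only 13, 3 and 2 counts in NXP800. No NXP800 library reached the lowest DMSO library of its time. The log2 fold change was -2.06 at 6 h (standard error 0.31). At 24 h the summed counts were 225 in DMSO and 18 in NXP800, a 13.2-fold lower level with an exact 95% counting interval of 8.15 to 22.6, which leaves out the spread between replicates. The 24 h value rests in part on NXP800 replicate 1: its fitted log2 fold change was -3.69, and -4.93 without that library. The difference between both responses (24 h less 6 h) was -1.63 (95% interval -2.80 to -0.46). It lay between -2.88 and -1.22 with a library left out, so its size depended on single libraries.

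*ANGPT2*, on chromosome 8 from 6499632 to 6563245, had 266, 274 and 265 counts in DMSO and 142, 187 and 154 counts in NXP800 at 6 h. The 24 h libraries had 114, 167 and 146 counts in DMSO and 18, 11 and 8 counts in NXP800. The groups were apart at both times, modestly at 6 h and widely at 24 h. The log2 fold change went from -0.76 (standard error 0.16) to -3.59 (standard error 0.24), and the difference between both responses (24 h less 6 h) was -2.83 (95% interval -3.47 to -2.19). *MCPH1*, on the other strand, covers 9.69% of the *ANGPT2* exon length, and the strand setting of the counting was not given in the sources used here. The ratio of *ANGPT1* to *ANGPT2* in CPM per kb was 0.399 to 0.613 in DMSO and 0.153 to 0.254 in NXP800 at 6 h. At 24 h it was 0.495 to 1.06 in DMSO and 0.311 to 0.899 in NXP800, and these ranges overlapped.

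*ANGPTL4*, on chromosome 19 from 8364155 to 8374370, encodes an inhibitor of lipoprotein lipase that also acts on vessel permeability. It had 282, 221 and 242 counts in DMSO and 468, 408 and 383 counts in NXP800 at 6 h, and 169, 396 and 292 counts in DMSO and 337, 514 and 378 counts in NXP800 at 24 h. It was higher in all NXP800 libraries of 6 h, and at 24 h only DMSO replicate 2 lay within the NXP800 range. The log2 fold change was 0.73 (standard error 0.22) and 0.44 (standard error 0.22). The 24 h value became 0.74 without DMSO 24 h replicate 2, and the gene would then count among the calls, as with the replicate number as a block (0.47).

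The 3 vasoactive peptide genes were lower after NXP800 with different time courses. *APLN*, on chromosome X from 129645259 to 129654956, had 155, 134 and 138 counts in DMSO and 24, 18 and 20 counts in NXP800 at 6 h. Its counts at 24 h were 169, 182 and 204 counts in DMSO and 26, 24 and 41 counts in NXP800. The gap was as wide at 6 h as at 24 h within the error, with log2 fold changes of -2.80 (standard error 0.21) and -2.68 (standard error 0.19) and a difference of 0.12 (95% interval -0.49 to 0.74). At 6 h, 22 of the 15979 genes fell more than *APLN*.

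*EDN1*, on chromosome 6 from 12230516 to 12297194, encodes the precursor of the vasoconstrictor endothelin-1. It had 171, 114 and 129 counts in DMSO and 123, 121 and 97 counts in NXP800 at 6 h, which overlapped (log2 fold change -0.31, 95% interval -0.74 to 0.13). At 24 h it had 138, 160 and 210 counts in DMSO and 31, 39 and 53 counts in NXP800, or -2.12 in log2 units (standard error 0.23). Its fall was thus seen at 24 h, and the difference between both responses (24 h less 6 h) was -1.82 (95% interval -2.47 to -1.17). With the replicate number as a block *EDN1* would count among the calls at 6 h (-0.30 in log2 units), which is a description like the other calls of the 10 genes. *ADM*, on chromosome 11 from 10305073 to 10307397, encodes adrenomedullin, a vasodilator that maintains the endothelial barrier. It had 41.2, 39.5 and 35.2 CPM in DMSO and 33.7, 26.6 and 24.9 CPM in NXP800 at 6 h, and 43.0, 54.1 and 52.3 CPM in DMSO and 31.4, 34.2 and 33.4 CPM in NXP800 at 24 h. Its groups did not overlap, and its falls were smaller than those of *APLN* or *PGF*, with log2 fold changes of -0.44 and -0.59 (standard error 0.11 each).

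**Figure D3:**
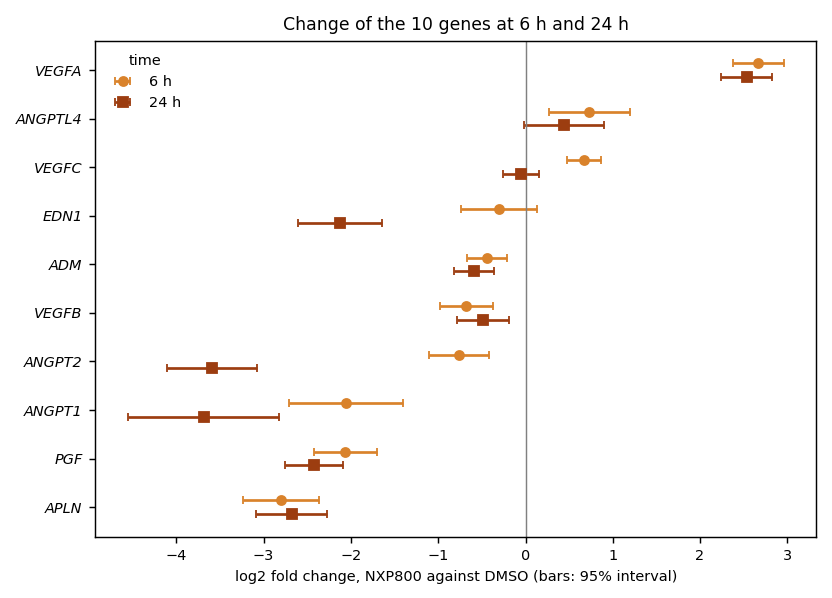
Log2 fold change of NXP800 against DMSO for the 10 genes at 6 h (circles) and 24 h (squares), with 95% intervals as bars, ordered by the 6 h value. *VEGFA* stands alone at 2.66 and 2.53, *APLN* and *PGF* lie below -2 at both times, and *ANGPT1*, *ANGPT2* and *EDN1* lie further left at 24 h than at 6 h.

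Calls were made by edgeR's quasi-likelihood (QL) test where its Benjamini-Hochberg adjusted p over all genes was below 0.05. By this rule 3 of the 10 genes were increased (25.0% of all tested genes) and 6 decreased (27.8% of all) at 6 h. At 24 h, 1 was increased (27.5% of all) and 7 were decreased (28.6% of all). Calls either way made up 52.8% of all genes at 6 h and 56.0% at 24 h, and since these comparisons were known when the genes were listed, the counts are a description. The median log2 fold change of the 10 genes was -0.56 at 6 h and -1.36 at 24 h, against -0.046 and -0.0033 over all genes. The groups did not overlap for 9 of the 10 at 6 h and 8 at 24 h, as for 62.0% and 59.1% of all genes.

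The contrast of DMSO at 24 h against DMSO at 6 h was not used to list the genes, and its adjusted p is given. Its libraries are the DMSO groups of the comparisons in view at the listing, so the test is not independent of that choice. In this comparison 5 of the 10 genes passed, as did 41.6% of all genes, with 3 higher (21.0% of all) and 2 lower (20.6% of all). *PGF* was higher at 24 h (1.01 in log2 units, QL adjusted p = 5.28e-05), as were *APLN* (0.49, QL adjusted p = 0.0217) and *ADM* (0.37, QL adjusted p = 0.0119). *ANGPT2* (-0.80, QL adjusted p = 0.00113) and *VEGFC* (-0.48, QL adjusted p = 0.000903) were lower. *VEGFA* differed by -0.032 (95% interval -0.31 to 0.25, QL adjusted p = 0.869). With library-size scaling the median of all genes moved by -0.15, calls were 26.5% increased instead of 50.5%, and *APLN* and *ADM* no longer passed (QL adjusted p = 0.0912 and 0.116). *APLN* also lost its call without DMSO 6 h replicate 2 or 3 or DMSO 24 h replicate 3 (QL adjusted p = 0.0725, 0.0647 and 0.0971), and *ADM* without DMSO 6 h replicate 3 or DMSO 24 h replicate 2 (0.055 and 0.0568). Conversely, *EDN1* passed without replicate 1 of either DMSO group (0.0366 and 0.0484) and *ANGPTL4* without DMSO 24 h replicate 1 (0.012), and both passed with no filter on low counts. Time in culture and the set of libraries made at each time cannot be told apart.

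The start regions of 3 of the genes with different time courses are shown for their sequence context. Sequences are from RefSeq's GRCh38.p14 annotation, whose table used here held 7 of the 10 genes, all but *VEGFA*, *ANGPT1* and *ANGPT2*. Each is the 250 bases before the start of the MANE Select transcript, on the strand of the gene, 5′ to 3′, for *VEGFC* (chr4:176792923-176793172, minus strand, higher at 6 h), *APLN* (chrX:129654957-129655206, minus strand, lower at both times) and *EDN1* (chr6:12290111-12290360, plus strand, lower at 24 h). Capitals mark the core of the hypoxia response element, ACGTG or GCGTG, on either strand.
VEGFC: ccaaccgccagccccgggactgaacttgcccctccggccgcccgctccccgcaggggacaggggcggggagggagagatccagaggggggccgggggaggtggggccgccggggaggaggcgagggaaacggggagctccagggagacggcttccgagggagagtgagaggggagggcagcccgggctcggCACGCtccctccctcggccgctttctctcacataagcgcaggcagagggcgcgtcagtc
APLN: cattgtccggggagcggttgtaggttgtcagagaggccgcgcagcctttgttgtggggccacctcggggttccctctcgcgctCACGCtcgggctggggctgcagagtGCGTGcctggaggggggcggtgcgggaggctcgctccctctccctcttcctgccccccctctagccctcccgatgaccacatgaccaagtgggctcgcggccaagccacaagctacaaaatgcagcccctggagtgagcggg
EDN1: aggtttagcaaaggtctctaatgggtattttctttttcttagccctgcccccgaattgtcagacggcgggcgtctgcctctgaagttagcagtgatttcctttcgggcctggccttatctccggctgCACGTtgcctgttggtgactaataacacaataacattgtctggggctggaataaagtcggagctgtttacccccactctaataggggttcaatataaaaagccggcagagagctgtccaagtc
In windows of 250 bases before and 50 after the start, the core was found once in *VEGFB*, *VEGFC*, *PGF*, *ANGPTL4*, *ADM* and *EDN1*, and 2 times in *APLN*. The table lists 2 starts for *PGF* and 3 for *EDN1*, whose gene span begins upstream of the start used. So short a motif is common: 48.4% of the 35116 promoters of this length held it. The C/EBP-ATF response element, searched as TGATGNAAN on both strands, was in 0 of the 7 windows and in 3.61% of all promoters. The heat shock element, searched as GAANNTTC or TTCNNGAA, was in 0 of the 7 and in 13.5% of all. All 7 windows held the core, and those of *VEGFA*, *ANGPT1* and *ANGPT2* could not be searched. Whether the core has a part in the changes was not tested.

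The other genes of these pathways were taken from 4 lists written with earlier results of these data known. Genes named as the largest rises or falls of a list were picked among its calls. Their adjusted p was thus bound to pass at the time they were picked for, and it is a description. The first, receptors and processing, holds the partners of the 10 factors, of which 22 of 33 passed the filter. In the 6 h comparison 3 were increased and 4 decreased, and in that of 24 h 3 and 7, with medians of -0.23 and -0.22 on the log2 scale. Called genes made up 31.8% and 45.5% of this list, below the 52.8% and 56.0% of all genes. With the replicate number as a block, 13 instead of 7 passed at 6 h. Over all genes the 6 h calls were 8435 in the main fit and at most 9953 under any alternative. *ADM2*, which encodes intermedin, a peptide of the adrenomedullin family, showed the largest rise of the list. It had 125, 125 and 118 counts in DMSO and 1678, 1511 and 1586 counts in NXP800 at 6 h, and 192, 76 and 81 counts in DMSO and 1538, 1478 and 1418 counts in NXP800 at 24 h. The groups were more than an order of magnitude apart in mean at both times, with log2 fold changes of 3.67 (standard error 0.21, QL adjusted p = 9.78e-10) and 3.59 (standard error 0.21, QL adjusted p = 9.02e-10). *ADM* and *ADM2*, both ligands of the calcitonin receptor-like receptor, thus moved in opposite directions.

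Several receptors were at or near 0 in these cells. *TEK*, *APLNR*, *CALCRL*, *RAMP3* and *EDNRB* had at most 4, 1, 2, 0 and 2 counts in any library and did not pass the filter. *KDR* passed it with at most 13 counts. The filter was also passed by *NRP1*, *NRP2*, *RAMP1*, *RAMP2*, *FLT1*, *FLT4*, *TIE1* and the endothelin receptor *EDNRA* (20 to 42 counts). *NRP1*, a co-receptor of VEGF-A and placental growth factor, rose from 267 to 328 CPM at 6 h and from 316 to 411 CPM at 24 h (0.30 and 0.38 in log2 units, QL adjusted p = 0.000699 and 7.41e-05). *NRP2*, a co-receptor of VEGF-C, fell by 0.42 in log2 units at 6 h (QL adjusted p = 0.00743). At 24 h *NRP2* was at 0.10 (QL adjusted p = 0.459). *FLT1*, the receptor of placental growth factor and VEGF-B, had 153, 85 and 113 counts in DMSO and 92, 82 and 75 in NXP800 at 6 h (log2 fold change -0.52, QL adjusted p = 0.0606, 0.0103 with the replicate block and 0.0188 without DMSO 6 h replicate 2), and 68, 55 and 96 in DMSO and 26, 23 and 23 in NXP800 at 24 h (-1.68, QL adjusted p = 6.63e-05). The first pair of groups overlapped and the second did not. *RAMP1*, a partner of the calcitonin receptor-like receptor, fell by 0.63 and 1.66 in log2 units at these times (QL adjusted p = 0.000828 and 9.4e-08).

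Among the enzymes, *FURIN*, a protease that cuts the precursors of many growth factors, rose by 0.63 in log2 units at 6 h (QL adjusted p = 7.46e-06) and was at 0.097 at 24 h (QL adjusted p = 0.329). *ADAMTS3*, which processes pro-VEGF-C, fell by 0.99 at 6 h and 1.16 at 24 h (QL adjusted p = 5.22e-05 and 8.51e-06). *ECE1*, the endothelin-converting enzyme, fell by 0.34 at 24 h (QL adjusted p = 0.00118). At 6 h *ECE1* was at -0.18 (QL adjusted p = 0.0574, 0.00786 with the replicate block and 0.0443 without DMSO 6 h replicate 2). Outside the naming rule and chosen after its values were seen, *ANGPT4*, another angiopoietin, had 26, 40 and 10 counts in DMSO and 16, 20 and 4 in NXP800 at 6 h, and 28, 43 and 39 in DMSO and 0, 0 and 0 in NXP800 at 24 h. With a floor of 3 counts over the NXP800 group of 24 h, the DMSO level of *ANGPT4* was 38.6-fold above that floor. This value leaves out the spread between replicates, and no test is given because of how the gene was chosen.

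Other secreted angiogenic factors changed in both directions. Of 36 genes 25 were tested, and 12 were increased and 7 decreased at 6 h, and 6 and 8 at 24 h, with medians of 0.48 and -0.014. Called genes made up 76.0% of this list at 6 h, against 52.8% of all genes. At 24 h the share was 56.0%, the same as that of all genes. *CXCL8*, a chemokine, went from 1.71 ± 0.156 to 56.8 ± 15.8 CPM at 6 h (5.05 in log2 units, QL adjusted p = 2.38e-10) and from 0.270 ± 0.0304 to 0.944 ± 0.550 CPM at 24 h (1.79, QL adjusted p = 0.00805, SD, n = 3 each). The 24 h counts of *CXCL8* were low, with 9, 8 and 7 in DMSO and 41, 37 and 10 in NXP800. NXP800 replicate 3 (0.319 CPM) was close to the highest DMSO library (0.301 CPM). *EREG*, an EGF receptor ligand, rose by 2.75 at 6 h (QL adjusted p = 1.08e-07) and was at -0.19 at 24 h (QL adjusted p = 0.561). *NTN4*, a netrin, rose at both times (1.97 and 2.00, QL adjusted p = 5.6e-08 and 4.56e-08). *ANGPTL2* fell by 1.97 and 1.30 (QL adjusted p = 4.69e-08 and 1.28e-06), and *CCN2*, a matricellular growth factor, by 1.05 and 1.84 (QL adjusted p = 8.04e-05 and 2.18e-07).

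Of 30 genes that restrain vessel growth 23 were tested, with 4 increased and 9 decreased at 6 h and 2 and 10 at 24 h (median -0.15 and -0.33). Called genes made up 56.5% and 52.2% of this list, near the 52.8% and 56.0% of all genes. *THBS1*, which encodes the secreted inhibitor thrombospondin-1, had 538, 371 and 453 CPM in DMSO and 294, 264 and 209 CPM in NXP800 at 6 h, and 479, 531 and 515 CPM in DMSO and 106, 86.1 and 109 CPM in NXP800 at 24 h. The groups did not overlap, and the log2 fold change was -0.83 and -2.34 (QL adjusted p = 5.71e-05 and 9.81e-10). *SPARC* fell by 0.79 and 2.02 (QL adjusted p = 6.05e-05 and 2.69e-09). *SPRY2*, an intracellular brake on receptor tyrosine kinases, rose by 2.05 and 1.30 (QL adjusted p = 2.53e-08 and 2.61e-06). *SEMA3A*, a neuropilin-1 ligand that competes with VEGF-A, was the member of the list that passed in opposite directions, at 0.62 at 6 h and -1.14 at 24 h (QL adjusted p = 6.55e-05 and 2.05e-07).

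Since *VEGFA* is a HIF target, the HIF pathway was followed beside it. Of 35 genes 32 were tested, with 12 increased and 12 decreased at 6 h and 8 and 12 at 24 h (median -0.091 and -0.12), that is 75.0% and 62.5% called against 52.8% and 56.0% of all genes. Among the 24 tested HIF targets 7 were increased and 11 decreased at 6 h, and 5 and 10 at 24 h. *EGLN3*, an oxygen-sensing prolyl hydroxylase that HIF itself induces, is counted with the pathway genes below and not with these targets. It fell by 1.52 and 1.93 in log2 units (QL adjusted p = 3.35e-07 and 2.51e-08). *CA12*, a carbonic anhydrase, fell by 1.68 and 0.85 (QL adjusted p = 1.15e-06 and 0.000442). The glycolytic *LDHA* fell by 0.57 and 0.97 (QL adjusted p = 1.82e-05 and 4.9e-08), and the lactate exporter *SLC16A3* by 0.83 and 1.23 (QL adjusted p = 5.45e-07 and 4.62e-09). *DDIT4*, which encodes REDD1 and is also a target of the integrated stress response, had 34.6, 46.3 and 35.9 CPM in DMSO and 442, 453 and 416 CPM in NXP800 at 6 h, a rise of 3.49, and rose by 2.41 at 24 h (QL adjusted p = 5.55e-10 and 1.16e-08). *NDRG1* rose by 0.90 and 1.51 (QL adjusted p = 5.58e-05 and 1.83e-07). Unlike *LDHA*, the glycolytic *HK2* rose, by 0.89 at 6 h and 0.74 at 24 h, and *MXI1* rose by 0.34 and 0.94.

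Of the 8 tested genes of the pathway itself, 5 were increased and 1 decreased at 6 h, and 3 and 2 at 24 h, with *EGLN3* decreased at both times. *HIF1A* rose by 0.30 at 6 h (QL adjusted p = 0.00184) and was at 0.10 at 24 h (QL adjusted p = 0.218, and 0.0308 with library-size scaling). *EPAS1*, which encodes HIF-2α, rose by 0.62 at 6 h (QL adjusted p = 0.000638). At 24 h *EPAS1* was at 0.26 (QL adjusted p = 0.0904, and 9.57e-05 with the replicate block). *VHL*, which marks HIF-α for degradation, rose by 0.75 and 0.44 (QL adjusted p = 1.11e-05 and 0.0013). HIF protein was not measured here.

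**Figure D4:**
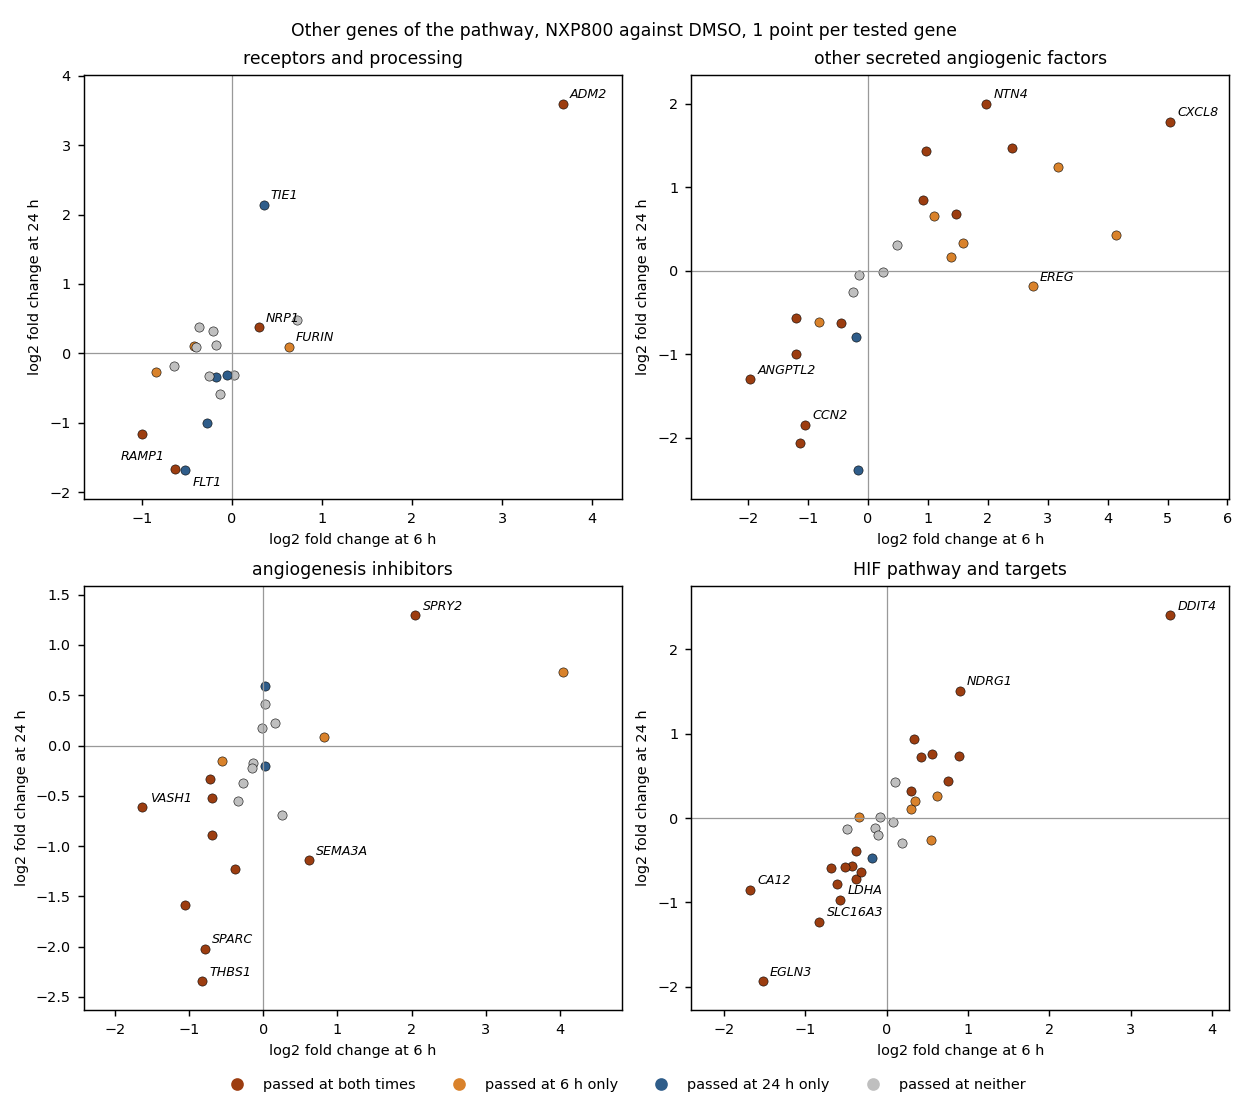
Log2 fold change of NXP800 against DMSO at 6 h (horizontal axis) and 24 h (vertical axis) for each tested gene of 4 lists, 1 point per gene (*ANGPT4*, at 0 in a group, is left out), coloured by the time at which it passed an adjusted p below 0.05. *ADM2* and *DDIT4* lie far to the upper right, *EGLN3* and *THBS1* to the lower left, and *SEMA3A* is right of 0 at 6 h and below 0 at 24 h.

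The genes whose log2 CPM followed those of the members most closely over the 12 libraries, which share 4 conditions, were named by rule. For *VEGFA* they were *ALOXE3*, *TXNL4B* and *SLC38A1* (Pearson r 0.997, 0.995 and 0.995). For *APLN* they were *SMAD6*, *HSPA2* and *JPH2* (0.993, 0.993 and 0.992), and for *PGF* they were *HDHD5*, *RCC1* and *ANKRD39* (0.991, 0.987 and 0.987). For *ANGPT2* they were *PBK*, *SKA2* and *PRKAR2B* (0.99 each), and for *EDN1* they were *EFEMP1*, *PLAT* and *LPAR1* (0.978, 0.977 and 0.974). The highest r for *ANGPTL4* was lower, 0.949 with *DNAJC17*. The libraries share their conditions, so these correlations are a description and carry no test.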

How the data were processed

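The 12 libraries of MNNG/HOS cells are strand-specific, paired-end mRNA libraries. The deposited values are raw counts of read pairs per gene symbol, which the authors made with fastp 0.20.1, STAR 2.7.5a on hg38 and HTSeq 0.12.4 on RefSeq genes, per the submitters' processing notes. Trimming parameters, strand setting and overlap rule were not given in the sources used here. Rows of the counter that name no gene (ambiguous pairs 2.10 to 2.43%, pairs aligned to several places 1.86 to 3.37%, pairs on no gene 2.73 to 8.14%) were left out. Replicates differed by more than sampling noise (chi-square per degree of freedom at least 7.36). With at least 30810614 counts per library, the spread between replicates limits the precision of all but low genes, and intervals on counts cover counting error only.

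The analysis used edgeR 4.0.16 in R 4.3.3, with filterByExpr, TMM, and the quasi-likelihood test in 1 model of the 4 groups over all 15979 genes, called at a Benjamini-Hochberg adjusted p below 0.05. Contrasts were NXP800 against DMSO at 6 h and at 24 h, DMSO at 24 h against 6 h, and the difference of the responses. For the 10 members the adjusted p is withheld where the listing used the contrast, and for *ANGPT4* throughout. Standard errors were derived from the log2 fold change and its F statistic. The edgeR and DESeq2 procedures were run on simulated data with changes in a small part of the genes at 6 h. The other contrasts, and any link between same-numbered libraries, were not covered. The replicate numbers pair the libraries: deviations from group means of same-numbered NXP800 and DMSO libraries had r of 0.159 to 0.329, and other pairs at most 0.058. The labels do not describe the pairing, so it was used as an alternative. Other alternatives were DESeq2 1.42.0 size factors and Wald test, library-size scaling, a fit of only the libraries of a comparison, no filter, a minimum of 10 counts in every library, an adjusted p below 0.01, and each library left out.

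The members and lists were chosen with earlier results of these data known. Named genes are the members, their receptors and enzymes, genes of the HIF pathway, the 3 largest rises and falls of each list at each time among calls (average log2 CPM 1 or more), and the 3 genes with the highest Pearson r with each member (log2 CPM, prior count 2). The text names a subset of these, chosen after their values were seen. Promoter windows are at the MANE Select start. Transcript lengths and exon overlaps are from GENCODE v44, whose models can differ from those counted on. No set test was run.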

Additional observations from a re-analysis of the deposited data

Results flagged for a closer look

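For 23 of 45 named genes outside the 10 factors (51.1%), the response to NXP800 at 24 h differed from that at 6 h by edgeR's quasi-likelihood test of the difference (adjusted p below 0.05, as for 25.8% of all tested genes). Many were named for a large change at 6 h or at 24 h, which bears on the difference, so this share is a description. Values are the 24 h minus the 6 h log2 fold change, so a smaller fall at 24 h also gives a positive value, and a smaller rise a negative one. The 10 factors themselves were not tested for it, because they were listed with both responses known.

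Among receptors, partners and enzymes the difference was negative for *FLT1* (-1.16), *RAMP1* (-1.03) and *FURIN* (-0.53) and positive for *FLT4* (0.58), *NRP2* (0.52) and *TIE1* (1.79). The log2 fold change of *FLT4* was -0.85 at 6 h and -0.27 at 24 h. For *TIE1*, an orphan receptor that modulates TIE2, counts went from 19, 15 and 19 in DMSO to 111, 62 and 74 in NXP800 at 24 h. The groups of 6 h overlapped, with 25, 39 and 61 counts in DMSO and 42, 51 and 69 in NXP800. For *ANGPT4*, which was at 0 counts in all 3 NXP800 libraries of 24 h, no size is given and the adjusted p of the difference was 0.00274.

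Among secreted factors the difference was negative for *CXCL8* (-3.26), *EREG* (-2.93) and *CCN2* (-0.79) and positive for *ANGPTL2* (0.67). Among inhibitors it was negative for *THBS1* (-1.51), *SPARC* (-1.23), *SEMA3A* (-1.76), *SPRY2* (-0.75) and *SPRY4* (-0.74) and positive for *VASH1* (1.02). *SEMA3A* passed the test at both times in opposite directions. Its groups were apart at both, with 22.1 to 25.0 CPM in DMSO and 34.0 to 40.1 CPM in NXP800 at 6 h, and 19.0 to 19.6 CPM against 7.18 to 9.56 CPM at 24 h.

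Among HIF targets the difference was negative for *DDIT4* (-1.08), *LDHA* (-0.40) and *SLC16A3* (-0.41) and positive for *CA12* (0.83), *MXI1* (0.59) and *NDRG1* (0.61). The share of read pairs on no gene was higher in the 6 h libraries, and its part in the differences was not tested. With library-size scaling 59.6% of the calls of the difference over all genes were positive instead of 46.6%.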

How the results depend on the processing

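The calls of the 10 factors in NXP800 against DMSO were recomputed as 276 values under the alternatives, of which 269 kept direction and side of the threshold, and those of the other named genes as 1251, of which 1210 did. *ANGPT1* and *ANGPT2* gave no value with at least 10 counts required in every library. The number of factors called was within 1.5 times the main count throughout at 6 h and at 24 h. *ANGPTL4* lost its 6 h call at an adjusted p below 0.01 and gained its 24 h call with no filter on low counts, with the replicate block and without DMSO 24 h replicate 2. The replicate block added *EDN1* at 6 h and *ANGPTL4* at 24 h and changed no other call of the 10 factors at these times. It raised the calls among receptors and processing at 6 h from 7 to 13, where those over all genes were 8435 in the main fit and at most 9953 under any alternative. The block also raised the calls of the difference of the responses over all genes from 4129 to 6284, while an adjusted p below 0.01 left 2236 of these. Beside those given with the results, the block also brought *PAM* (QL adjusted p = 0.0103) and *EGLN1* (0.0126) past the threshold at 6 h and *FLT4* (0.0445) and *LPL* (0.0398) at 24 h. *ANGPT4*, chosen after its values were seen, also passed at 6 h with the block. The cause of these changes was not tested.

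In DMSO at 24 h against 6 h the block within each time could not be fitted. A replicate block shared by both times, chosen after seeing the data, changed no call of the 10 factors and moved the calls among inhibitors from 4 to 7. Here 5 factors were called, 3 with library-size scaling and 3 at an adjusted p below 0.01, and 3 to 7 with a library left out. Calls among receptors and processing went from 8 to 2 at the stricter threshold and lay between 4 and 8 with a library left out. Calls among inhibitors went from 4 to 10 with library-size scaling, 9 with no filter, 7 with only these libraries and 2 at the stricter threshold, and lay between 2 and 6 with a library left out.

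Values that changed sign had not passed the threshold. *VEGFC* at 24 h was 0.044 with library-size scaling. With a library left out, *VEGFC* at 24 h lay between -0.16 and 0.038, *VEGFA* in DMSO at 24 h against 6 h between -0.21 and 0.064, *THBS2* at 6 h between -0.094 and 0.20, *KDR* at 6 h between -0.37 and 0.023, and *LPL* at 6 h between -0.31 and 0.028. *NRP2* lay between -0.020 and 0.20, *EREG* between -0.52 and 0.20 and *RAMP2* between -0.074 and 0.22 at 24 h. The difference of the responses lay between -0.31 and 0.044 for *VEGFA*, -0.57 and 0.010 for *ANGPTL4* and -0.15 and 0.27 for *APLN*. For these genes the difference is a value with no test.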
